A study of Mus musculus with 12 samples.

Results

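The invariant chain gene Cd74 and 6 genes of the MHC class II pathway (H2-Aa, H2-Ab1, H2-Eb1, H2-DMa, H2-DMb1 and Ciita) were followed across microglia from 4 regions of the mouse brain. The genes were taken by symbol, and all 7 were among the 23337 symbols of the count table. The set was selected on CPM levels by region: earlier results of these data had shown Cd74 higher in cortex and hippocampus than in striatum and cerebellum. The values of the 7 genes in that comparison are therefore a description and were not tested. The microglia came from male mice, wild type on C57BL/6N, aged 60 days (P60), and the labels name no treatment. Cortex, hippocampus, striatum and cerebellum each gave 3 libraries. A region's tissue was pooled from 3 to 5 animals, and each library was made from 3000 sorted TMEM119+ cells (CD45 low, CD11b+). Nothing in the labels says whether the 3 pools of a region were separate animals, so SDs and p-values measure the spread between libraries, which may be technical.

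MHC class II molecules are surface proteins of antigen-presenting cells that show peptides from taken-up protein to CD4+ T cells. An alpha and a beta chain (in these mice mainly those of H2-Aa and H2-Ab1) are assembled with the invariant chain Cd74, which fills the peptide groove and sorts the complex to endosomes. There proteases cut Cd74 down to a short fragment, and H2-DM, a dimer of H2-DMa with H2-DMb1 or H2-DMb2, exchanges that fragment for peptide. Ciita, the class II transactivator, docks on factors bound to paired promoter motifs, the X box (bound by the RFX complex and CREB family factors) and the Y box (bound by NF-Y). Resting microglia are known for low class II levels that rise with interferon-gamma.

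The paired motifs are shown first because they are the promoter element the class II genes share. Each line runs 5′ to 3′ on the gene's own strand, covers 90 bases from 125 to 36 bases before the start of the gene in RefSeq (GRCm38.p6, promoters of 300 bases), and has the X box letters AACNNATGA and the Y box letters GATTGG in capitals.
H2-Eb1, chr17:34305742-34305831, plus strand: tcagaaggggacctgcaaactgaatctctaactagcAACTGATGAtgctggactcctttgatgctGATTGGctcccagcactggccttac
H2-DMb1, chr17:34153066-34153155, plus strand: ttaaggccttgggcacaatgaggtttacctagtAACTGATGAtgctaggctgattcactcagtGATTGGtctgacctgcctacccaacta
H2-DMb2, chr17:34145124-34145213, plus strand: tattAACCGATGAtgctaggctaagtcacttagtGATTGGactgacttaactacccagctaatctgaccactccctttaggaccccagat
H2-Ob, chr17:34238780-34238869, plus strand: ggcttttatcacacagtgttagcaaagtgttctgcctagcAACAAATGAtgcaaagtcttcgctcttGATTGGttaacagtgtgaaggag
H2-Aa, chr17:34287859-34287948, minus strand: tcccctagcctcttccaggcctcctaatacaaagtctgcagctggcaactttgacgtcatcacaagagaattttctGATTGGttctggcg
H2-Oa, chr17:34092254-34092343, plus strand: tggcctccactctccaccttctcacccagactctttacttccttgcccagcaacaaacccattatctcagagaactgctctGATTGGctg
H2-Eb2, chr17:34325550-34325639, plus strand: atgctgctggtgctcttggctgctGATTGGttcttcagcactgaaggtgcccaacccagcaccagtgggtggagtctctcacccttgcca

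Of the 7 genes, H2-Aa, H2-Eb1, H2-DMa and H2-DMb1 had a promoter that was read here. Promoters of chromosome 18, which holds Cd74, were left out of this gene by gene reading, so none is described for Cd74. H2-Ab1 and Ciita had no entry among the RefSeq promoters used. H2-DMb2, H2-Ob, H2-Oa and H2-Eb2 are printed as other class II genes of the same chromosome region. H2-Eb1 and H2-DMb1 held both sets of letters, with 29 bases in H2-Eb1 and 30 bases in H2-DMb1 between the first base of the X box and that of the Y box. In H2-DMb2 the spacing was 30 bases and in H2-Ob 27 bases. H2-Aa, H2-Oa and H2-Eb2 held the Y box letters alone, and so did 1 of the H2-DMa promoters, outside the stretch shown. The X box letters were found in neither of the H2-DMa promoters. Across all 32851 promoters of the table, searched on both strands, 16.1% held the Y box letters and 2.85% the X box letters. The X box letters stood 20 to 40 bases before the Y box letters in 9 promoters, or 0.0274%, of which 4 were those of H2-Eb1, H2-DMb1, H2-DMb2 and H2-Ob. The X box letters were settled after these promoters had been read, so that count describes the choice as well as the genes, and a match is not a measured binding site. A promoter without these letters may still hold an X box with other letters.

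**Figure D1:**
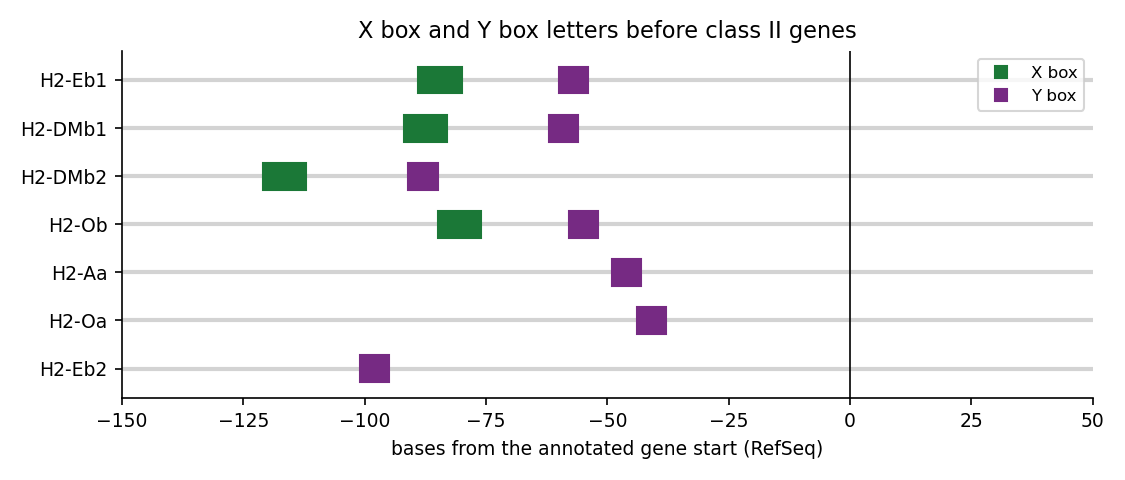
Position of the X box and Y box letters on the gene's strand in the RefSeq promoters of the class II genes, in bases from the annotated start. The 4 genes with both sets of letters have the X box letters on the far side of the Y box letters, 27 to 30 bases away. H2-Aa, H2-Oa and H2-Eb2 have the Y box letters alone, which does not show that an X box is absent.

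The cells matched their label. The 8 microglia marker genes, Tmem119 and P2ry12 among them, summed to 26565 to 36555 CPM over the 12 libraries (CPM, a gene's count relative to its library's total, scaled by TMM). Cortex 2 was the deepest library, with 14833340 counts in all, and striatum 2 the shallowest, with 6479839. Genes with at least 1 count numbered 12214 to 13614 in 11 libraries and 10929 in striatum 2, which also had the highest sum of choroid plexus genes. A count of 0 allows up to 3 counts in a library, or 0.194 CPM in cortex 2 and 0.485 CPM in striatum 2, and such floors cover counting error only. The low-count filter left 12217 genes for testing, among them 4 of the 7 genes: Cd74, H2-Ab1, H2-DMa and H2-DMb1.

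Cd74 lies on chromosome 18 at 60803848 to 60812652 (GRCm38, GENCODE M21, plus strand) and encodes the chaperone of new class II dimers. Its level was 104, 127 and 136 CPM in the cortex libraries, and 126, 62.0 and 95.1 CPM in the hippocampus libraries. In striatum it was 54.9, 18.4 and 45.6 CPM, and in cerebellum 39.8, 39.8 and 42.3 CPM. All 6 libraries of cortex and hippocampus were therefore above all 6 of striatum and cerebellum, but hippocampus 2 (62.0 CPM) and striatum 1 (54.9 CPM) were close neighbours at the boundary. Striatum 2 held the lowest level, 18.4 CPM, and rested on 114 reads. As background, 24 of the 12217 genes, or 0.196%, had all libraries of cortex and hippocampus above those of striatum and cerebellum. That pattern is the one Cd74 was chosen for, so its place among those genes carries no weight.

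**Figure D2:**
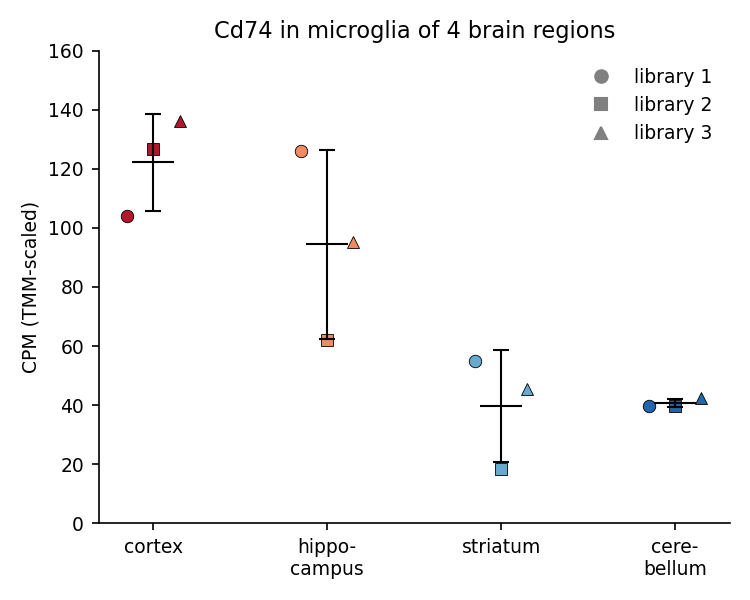
Cd74 level in CPM in each of the 12 libraries, by region, with the region mean and SD. The cortex and hippocampus points lie between 62.0 and 136 CPM, and the striatum and cerebellum points between 18.4 and 54.9 CPM.

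By region, Cd74 averaged 122 ± 16.5 CPM in cortex, 94.4 ± 32.1 CPM in hippocampus, 39.6 ± 19.0 CPM in striatum and 40.7 ± 1.41 CPM in cerebellum (SD, n = 3 each). The mean over cortex and hippocampus was 108 ± 27.4 CPM, against 40.2 ± 12.03 CPM over striatum and cerebellum (SD, n = 6 each). The fitted log2 difference was 1.42 with a standard error of 0.26 (95% interval 0.85 to 1.99), or 2.67-fold. In descending order the regions stood as cortex, hippocampus, cerebellum and striatum. Between neighbours in that order the log2 difference was 0.37 (−0.42 to 1.16) for cortex over hippocampus, 1.22 (0.42 to 2.02) for hippocampus over cerebellum and −0.03 (−0.83 to 0.76) for striatum over cerebellum. The library values of cortex and hippocampus overlapped, and so did those of striatum and cerebellum. Cortex exceeded striatum by a log2 difference of 1.62 (0.81 to 2.43) and cerebellum by 1.59 (0.78 to 2.39), and hippocampus exceeded striatum by 1.25 (0.45 to 2.05). Cd74 was selected on this division of the regions, so the intervals describe the spread of the libraries and are no test of it. In bulk libraries, fewer cells carrying Cd74 and less Cd74 RNA per cell cannot be told apart.

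H2-Ab1, the class II beta chain that pairs with H2-Aa (chromosome 17, 34257689 to 34269419, plus strand), was the only classical chain gene to pass the filter. It measured 13.7, 6.54 and 11.6 CPM in cortex and 12.2, 16.0 and 17.3 CPM in hippocampus. The striatum libraries had 7.34, 14.2 and 9.58 CPM, and the cerebellum libraries 12.2, 8.59 and 6.35 CPM. The ranges overlapped in every pairing of regions except hippocampus with cerebellum, where the lowest hippocampus value and the highest cerebellum value both rounded to 12.2 CPM. Cortex and hippocampus averaged 12.9 ± 3.81 CPM, against 9.71 ± 2.99 CPM in striatum and cerebellum (SD, n = 6 each), a log2 difference of 0.39 with an interval of −0.47 to 1.25. Striatum 2, the lowest library for Cd74, was the highest of its region for H2-Ab1.

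The other classical chain genes were at the edge of detection. H2-Aa, the alpha chain (chromosome 17, 34282744 to 34287823, minus strand), had 8 reads in striatum 3 (0.633 CPM) and 0 reads in the other 11 libraries. H2-Eb1, the beta chain of the second class II molecule (chromosome 17, 34305867 to 34316674, plus strand), had 7, 5 and 0 reads in cortex, 3, 9 and 6 in hippocampus, 0, 0 and 21 in striatum and 8, 2 and 0 in cerebellum. Summed over a region, H2-Eb1 came to 0.314 CPM in cortex (Poisson 95% interval 0.162 to 0.549), 0.542 in hippocampus (0.322 to 0.857), 0.770 in striatum (0.477 to 1.18) and 0.336 in cerebellum (0.161 to 0.617). These intervals cover counting error only, and they overlapped between all regions. Striatum 3 gave all the striatal H2-Eb1 reads and all the H2-Aa reads of the study. An antisense gene, Gm20513, overlaps H2-Eb1, and the kit does not mark strand, so their reads cannot be told apart. The pseudogene H2-Ea-ps, at the locus of the alpha partner of H2-Eb1, and H2-Eb2 had 0 reads in all 12 libraries.

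The regions overlapped for both tested peptide exchange genes. H2-DMa (chromosome 17, 34119541 to 34139101, plus strand) had 119, 65.5 and 81.2 CPM in cortex and 84.3, 66.2 and 56.6 CPM in hippocampus. In striatum it had 81.5, 57.2 and 52.3 CPM, and in cerebellum 100.1, 57.4 and 50.7 CPM. Replicate 1 was the highest library of each region for H2-DMa. The means were 78.8 ± 22.3 CPM in cortex and hippocampus and 66.5 ± 19.9 CPM in striatum and cerebellum (SD, n = 6 each), with a log2 difference of 0.23 (−0.27 to 0.74). Brd2 overlaps H2-DMa on the opposite strand in the annotation, so without strand the H2-DMa counts are uncertain.

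H2-DMb1, the beta chain of H2-DM (chromosome 17, 34153072 to 34160230, plus strand), had 54.8, 33.5 and 41.6 CPM in cortex and 35.2, 65.4 and 40.7 CPM in hippocampus. Its levels were 39.4, 25.9 and 46.6 CPM in striatum and 61.7, 49.1 and 39.0 CPM in cerebellum. The highest library was hippocampus 2 and the next was cerebellum 1, so the gene followed no division of the regions. Cortex and hippocampus averaged 45.2 ± 12.4 CPM, and striatum and cerebellum 43.6 ± 12.01 CPM (SD, n = 6 each), with a log2 difference of 0.06 (−0.47 to 0.60). H2-DMb2 is a near copy of H2-DMb1 and stood at 4.44 ± 1.45 CPM in cortex and hippocampus, against 4.18 ± 2.62 CPM in striatum and cerebellum. Reads could have been split between the pair by the counting, so both values are uncertain.

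Ciita (chromosome 16, 10480059 to 10528418, plus strand) had 10 reads in hippocampus 1, 1 read in hippocampus 2 and 0 reads in the other 10 libraries. Over a region, 0 reads allow up to 0.0786 CPM in cortex, 0.110 CPM in striatum and 0.101 CPM in cerebellum. Ciita overlaps Dexi on the opposite strand, so even these few reads cannot be assigned with certainty. At this depth a regional difference in Ciita was not detectable.

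**Figure D3:**
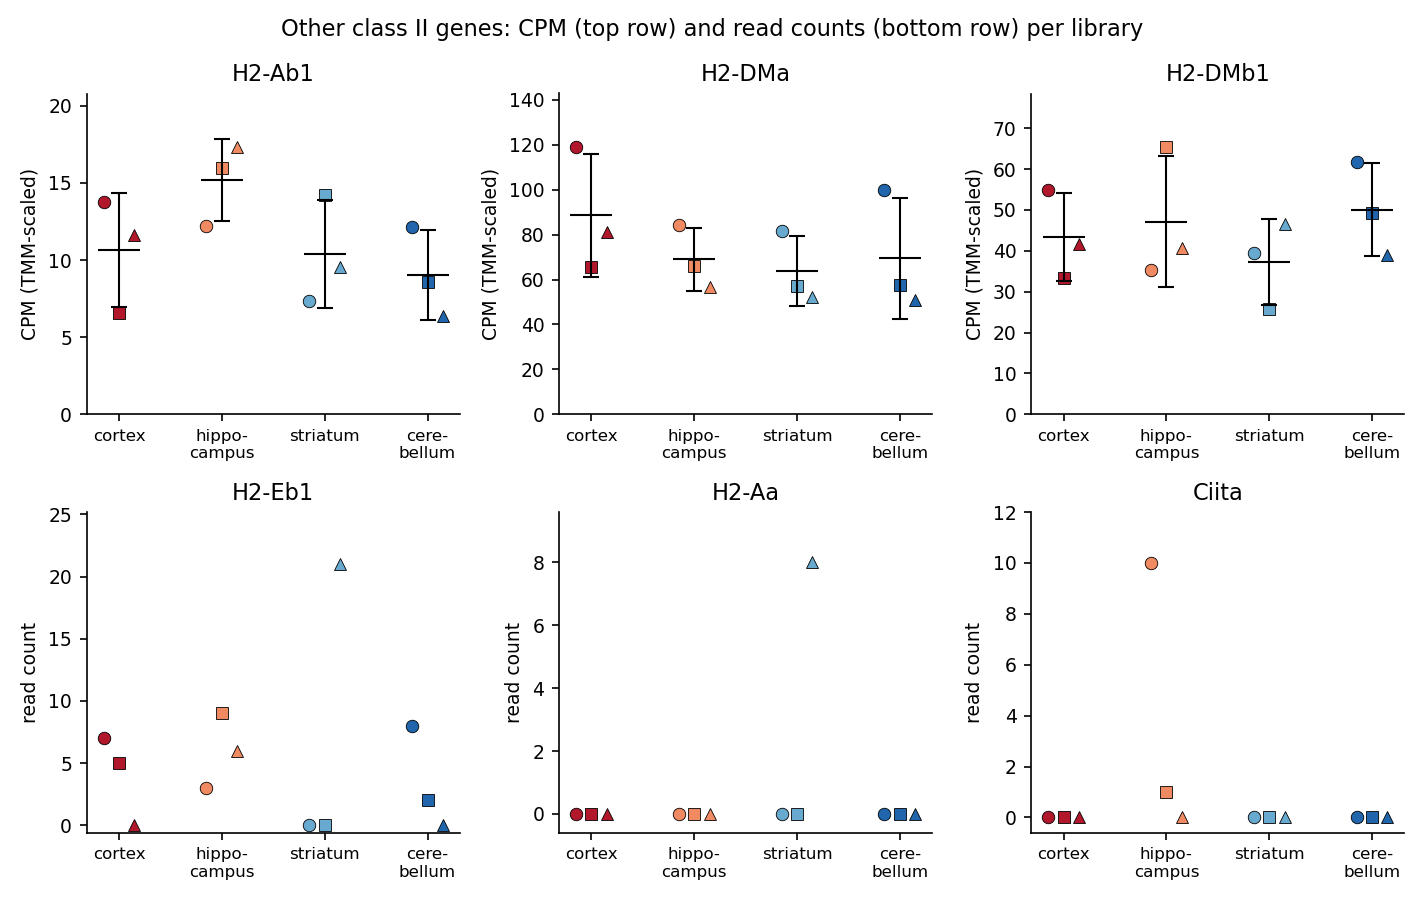
Levels of H2-Ab1, H2-DMa and H2-DMb1 in CPM in each library, by region, with region means and SDs, and read counts of H2-Eb1, H2-Aa and Ciita. The regions overlap for H2-Ab1, H2-DMa and H2-DMb1, apart from the hippocampus and cerebellum points of H2-Ab1, which meet at 12.2 CPM.

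Per kilobase of merged exons (GENCODE M21), levels can be set against each other between genes only roughly, since the annotation used for the counting is not given. On that scale Cd74 stood highest in cortex and hippocampus, at 64.5 ± 16.3 CPM per kb, against 23.9 ± 7.17 in striatum and cerebellum (SD, n = 6 each). H2-DMb1 had 26.9 ± 7.38 CPM per kb in cortex and hippocampus and 26.0 ± 7.15 in striatum and cerebellum, and H2-DMa had 22.9 ± 6.46 in cortex and hippocampus and 19.3 ± 5.76 in striatum and cerebellum. On this scale Cd74 was thus near the H2-DM genes in striatum and cerebellum, with the H2-DMa value uncertain because of the overlap with Brd2. H2-Ab1 was lower on both sides, at 5.02 ± 1.48 CPM per kb in cortex and hippocampus and 3.78 ± 1.16 in striatum and cerebellum.

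The ratio of Cd74 to its partners within a library does not depend on library size. Cd74 was selected on its difference between the sides, so the ratios carry that selection and are no test of it. Cd74 over H2-DMa, both per kb, was 1.79, 3.97 and 3.44 in cortex and 3.07, 1.92 and 3.45 in hippocampus. It was 1.38, 0.661 and 1.79 in striatum and 0.818, 1.42 and 1.71 in cerebellum. The lowest cortex value and the highest striatum value were equal to the digits given, so the sides met. Cd74 over H2-DMb1 was 1.90, 3.79 and 3.28 in cortex and 3.59, 0.949 and 2.34 in hippocampus, against 1.40, 0.713 and 0.981 in striatum and 0.646, 0.812 and 1.08 in cerebellum, with hippocampus 2 among the lower values. Cd74 over H2-Ab1 was 11.6, 29.6 and 17.95 in cortex and 15.8, 5.93 and 8.40 in hippocampus, against 11.4, 1.98 and 7.28 in striatum and 5.01, 7.09 and 10.2 in cerebellum. This last ratio overlapped between the sides for hippocampus but not for cortex.

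**Figure D4:**
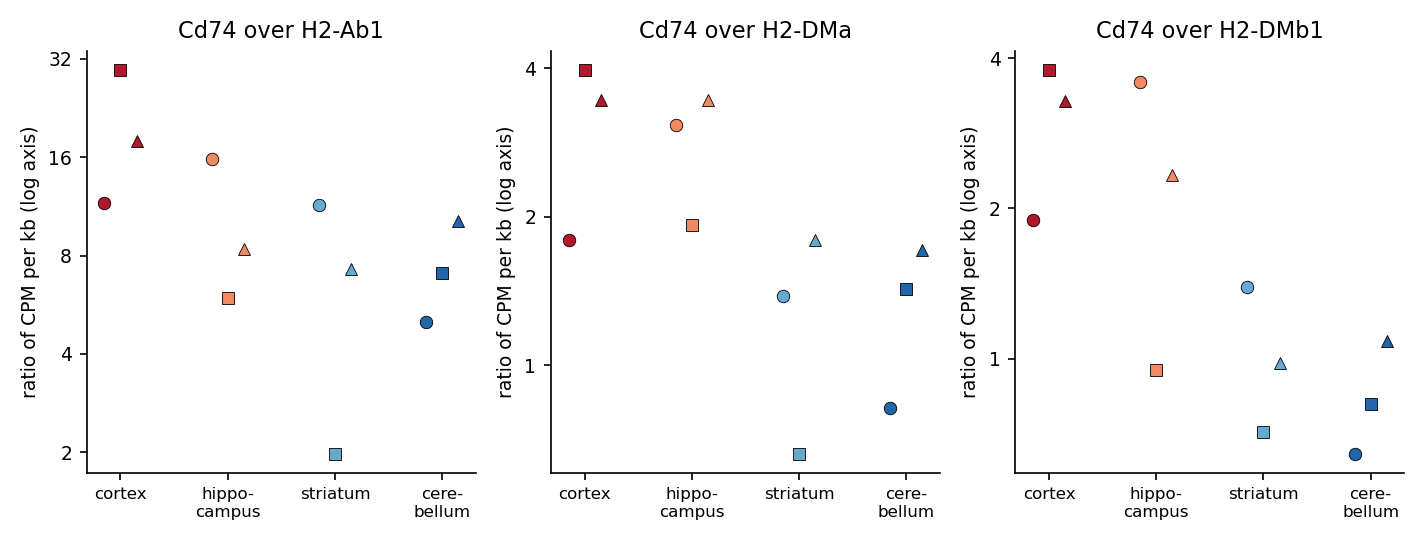
Ratio of Cd74 to H2-DMa, H2-DMb1 and H2-Ab1 within each library, per kilobase of exon, on a log axis, by region. The cortex ratios to H2-DMb1 and H2-Ab1 lie above all striatum and cerebellum ratios, while hippocampus 2 falls among them for both genes and hippocampus 3 for H2-Ab1. Cd74 was selected on its difference between the regions, so the ratios are no test of it.

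Across the 12 libraries, the other genes were not found to track Cd74 (log2 CPM, 3 correlations, two-sided permutation tests of 100000 resamples, Benjamini-Hochberg over the 3). Libraries were shuffled without regard to region, and Cd74 was selected on its regional levels. The p-values therefore do not separate tracking between regions from tracking within them. For H2-DMa, Pearson's r was 0.41 (permutation p = 0.182, adjusted 0.546) and Spearman's rho 0.36 (permutation p = 0.255, adjusted 0.765). H2-Ab1 gave r = 0.05 (permutation p = 0.868, adjusted 0.868) and rho = 0.05 (permutation p = 0.887). H2-DMb1 gave r = 0.10 (permutation p = 0.759, adjusted 0.868) and rho = −0.08 (permutation p = 0.823). Without striatum 2 and cortex 3, the libraries farthest from the median of Cd74, r was 0.31 for H2-DMa, 0.27 for H2-Ab1 and −0.45 for H2-DMb1. After each region's mean was taken off, r was 0.15 for H2-DMa, −0.60 for H2-Ab1 and 0.03 for H2-DMb1. The H2-DM partners H2-DMa and H2-DMb1 had an r of 0.37 with each other.

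No gene passed the adjusted threshold of 0.05 in the comparison of cortex and hippocampus with striatum and cerebellum under edgeR's quasi-likelihood test (0 of 12217; smallest adjusted p 0.93). At an unadjusted p under 0.05 there were 569 genes, or 4.66%, where the threshold alone would give 611. The test over the 4 regions also called 0 genes, with 222 at an unadjusted p under 0.05. limma-voom called 0 genes in both, and DESeq2 called 13 genes between the sides and 5 over the 4 regions.

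Genes around the class II pathway were grouped in 8 lists, of which 57 genes of 65 were tested. None was called by edgeR, limma-voom or DESeq2, and none had libraries that did not overlap (background 0.327% of all genes in either direction). Of the 57 genes, 23 had a higher and 34 a lower fitted level in cortex and hippocampus than in striatum and cerebellum, with a median log2 difference of −0.06. Over all 12217 genes, 6307 were higher and 5910 lower, with a median of 0.02. In the lists 4 genes had an unadjusted p under 0.05, 1 with a positive and 3 with a negative difference.

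Among the other class II genes, H2-Oa and H2-Ob encode H2-O, the inhibitor of H2-DM. H2-Ob had 30.9 ± 10.4 CPM in cortex and hippocampus and 42.9 ± 11.8 CPM in striatum and cerebellum (log2 difference −0.47 ± 0.28 SE, adjusted p = 0.93). H2-Oa had 18.4 ± 3.18 CPM in cortex and hippocampus and 21.97 ± 14.6 CPM in striatum and cerebellum, where striatum 2 alone reached 46.6 CPM. Neither gene had the direction of Cd74, and neither differed beyond the spread of its libraries.

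The class II promoter complex, the factors on the X and Y boxes printed above, was expressed in all regions although Ciita was nearly undetected. Of 11 tested genes 5 were higher and 6 lower in cortex and hippocampus, with a median log2 difference of −0.02. Rfx5, the DNA-binding subunit of the X box complex, averaged 21.9 ± 5.80 CPM in cortex and hippocampus, against 43.8 ± 19.5 CPM in striatum and cerebellum (log2 difference −1.01 ± 0.34 SE, adjusted p = 0.93). Its libraries ran from 14.8 to 28.1 CPM in cortex and hippocampus and from 21.9 to 71.3 CPM in striatum and cerebellum, so they overlapped. Nfyb, a subunit of the Y box factor NF-Y, averaged 30.5 ± 5.08 CPM in cortex and hippocampus and 45.3 ± 14.9 CPM in striatum and cerebellum (log2 difference −0.55 ± 0.24 SE, adjusted p = 0.93). Atf1, of the CREB family, had a log2 difference of −0.43.

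Of the 11 tested genes that lead from interferon-gamma to Ciita, 4 were higher and 7 lower, with a median of −0.06. Ifngr1, a chain of the interferon-gamma receptor, averaged 1147 ± 91.8 CPM in cortex and hippocampus and 1338 ± 170 CPM in striatum and cerebellum (log2 difference −0.23 ± 0.10 SE, adjusted p = 0.93). The log2 difference was −0.30 for Irf2, an interferon regulatory factor, and 0.28 for Spi1, the myeloid factor PU.1, listed in the table under an older symbol.

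Antigen processing genes numbered 9, of which 3 were higher and 6 lower, with a median of −0.12. Lgmn, a lysosomal protease, had a log2 difference of −0.18, Ifi30, a lysosomal thiol reductase, of 0.24, and Sppl2a, which cleaves the membrane remnant of Cd74, of −0.48. Of 7 class II trafficking genes 4 were higher and 3 lower, with a median of 0.02. Cd83, which stabilises class II at the surface, had a log2 difference of 0.36, and the tetraspanin genes Cd9 and Cd37 of 0.22 and −0.14. All 5 tested costimulation genes had a lower fitted level, with a median of −0.16. Among them Cd80 had a log2 difference of −0.52 (95% interval −1.245 to 0.21) and Icosl of −0.23 (−0.66 to 0.21). Cd86, at 410 CPM in cortex and hippocampus and 456 CPM in striatum and cerebellum, had −0.16 (−0.48 to 0.15). Cd274 was near the floor, at 1.81 CPM in cortex and hippocampus and 2.31 CPM in striatum and cerebellum, with −0.16 (−3.63 to 3.32). The 6 class I genes that share the promoter module were higher in 2 cases and lower in 4, with H2-K1 at −0.15, B2m at −0.10 and Psmb9 at 0.18.

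Cd74 is also a surface receptor for the cytokine Mif. Mif had 54.7, 52.5 and 52.9 CPM in cortex, 38.5, 66.1 and 49.7 CPM in hippocampus, 26.5, 23.3 and 47.0 CPM in striatum and 30.3, 34.8 and 37.2 CPM in cerebellum. Hippocampus 2 was the highest library for Mif, and striatum 3 was the one library of its side above the lowest hippocampus library. The means were 52.4 ± 8.89 CPM in cortex and hippocampus and 33.2 ± 8.48 CPM in striatum and cerebellum (SD, n = 6 each; log2 difference 0.66 ± 0.23 SE, adjusted p = 0.93 by edgeR's quasi-likelihood test). Of the 5 tested genes of this list 4 were higher and 1 lower. The log2 difference was 0.75 ± 0.64 SE for Ddt, a relative of Mif, which had 1 read in striatum 2. For Cd44, the signalling partner of Cd74, it was −1.13 ± 1.10 SE. Cd44 was low, at 2.67 CPM in cortex and hippocampus and 5.97 CPM in striatum and cerebellum. Neither gene was called.

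**Figure D5:**
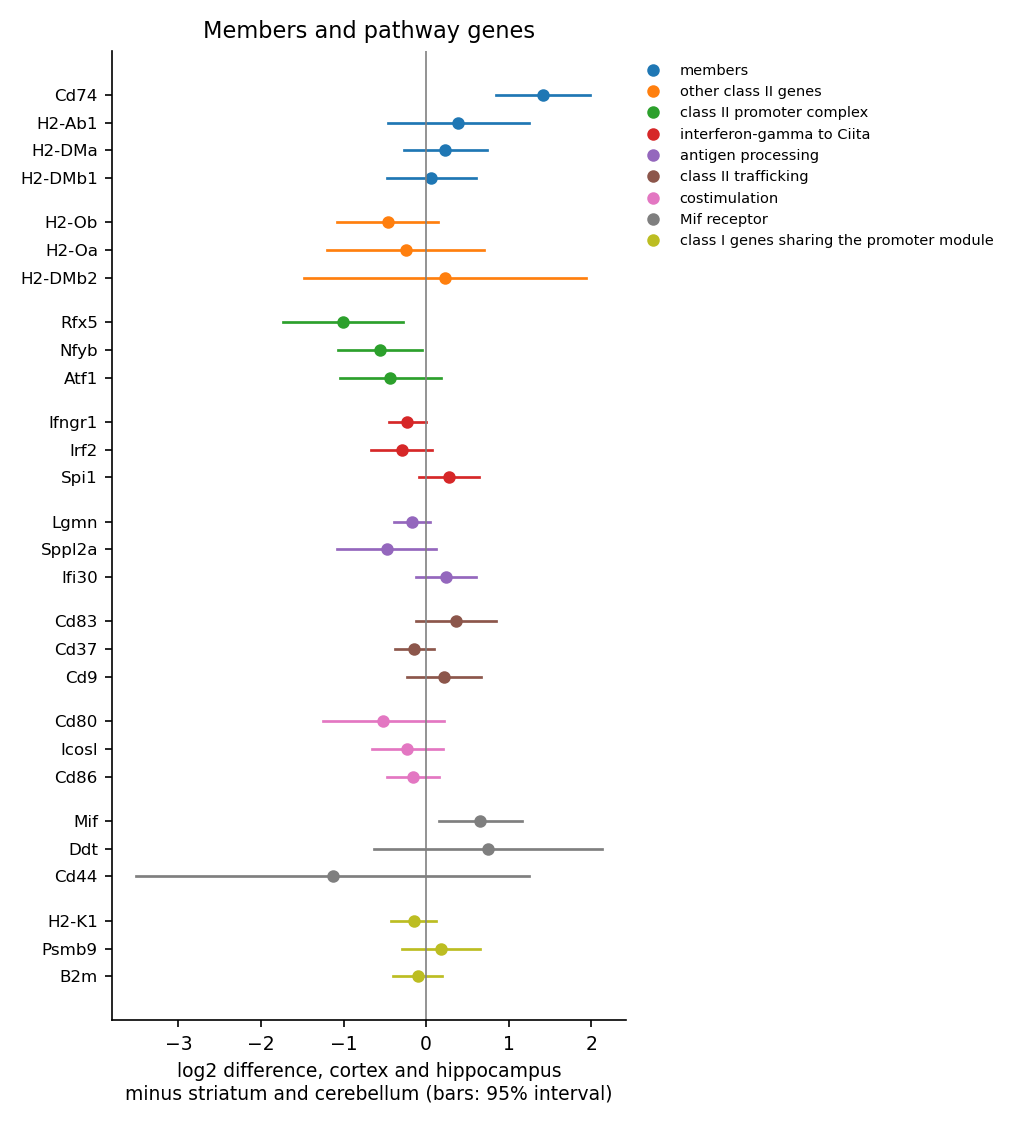
Log2 difference of cortex and hippocampus over striatum and cerebellum with its 95% interval for the 4 tested class II genes and the pathway genes named by rule. Cd74, at 1.42 (0.85 to 1.99), was selected on this difference and its interval is no test; H2-Ab1 is at 0.39, H2-DMa at 0.23 and H2-DMb1 at 0.06.

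The genes whose levels were most like those of Cd74 were ranked by Pearson's r of log2 CPM over the 12 libraries, among 9056 genes with a mean of at least 10 CPM (median r 0.05). By the naming rule these were Acbd6 (r = 0.87), Myc (0.87), Ccl24 (0.85), Eno1 (0.85), Ccr1 (0.85), Nfs1 (0.84), Sfxn1 (0.84) and C1qbp (0.84). Ccl24 is a chemokine and Ccr1 a chemokine receptor, Myc a transcription factor, Eno1 a glycolytic enzyme, Nfs1 a cysteine desulfurase, and Sfxn1 and C1qbp are mitochondrial proteins. Acbd6 averaged 32.5 ± 6.20 CPM in cortex and hippocampus and 18.2 ± 2.78 CPM in striatum and cerebellum. Ccr1 averaged 163 ± 26.2 CPM in cortex and hippocampus and 74.0 ± 35.7 CPM in striatum and cerebellum. Without striatum 2, r was 0.87 for Acbd6 and 0.85 for Ccl24, and it was 0.77 for Myc and 0.74 for Eno1 and Ccr1.

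At the other end stood Stk25 (r = −0.88), Gstt2 (−0.86), Slc7a7 (−0.86) and Ralgps2 (−0.86). Class II genes were far from the top: H2-DMa ranked 2454, H2-DMb1 4282 and H2-Ab1 4541 of 9056. Mif ranked 252 with r = 0.69, or 0.53 without striatum 2. Rfx5 ranked 9004 with r = −0.76, or −0.62 without striatum 2. These correlations share libraries and were picked as extremes, so they describe the 12 libraries.

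Markers of other cells that can carry class II had reads in these libraries. Border macrophage genes (12 of 12 in the table) summed to 680 to 1607 CPM in cortex, 757 to 1292 in hippocampus, 909 to 2222 in striatum and 664 to 1652 in cerebellum, mostly from Mrc1 and Stab1, and the highest sum was in a striatum library. Less abundant genes of that list, named after their values were seen, went different ways. Cbr2 had 8.15 to 19.4 CPM in cortex and 12.6 to 14.5 CPM in hippocampus, against 2.60 to 8.24 CPM in striatum and 3.98 to 7.19 CPM in cerebellum, so it was higher with Cd74 apart from a slight overlap of cortex and striatum. Pf4 had 5.24 to 20.7 CPM in cortex and 7.67 to 13.1 CPM in hippocampus, against 0 to 11.3 CPM in striatum and 3.203 to 11.4 CPM in cerebellum. Others did not go with Cd74. In cortex, hippocampus, striatum and cerebellum, Lyve1 averaged 7.80, 5.47, 12.6 and 3.50 CPM. Cd163 averaged 3.12, 3.25, 4.20 and 10.4 CPM in the same order. F13a1 averaged 24.5, 15.9, 24.5 and 11.6 CPM, and Folr2 11.5, 18.1, 15.2 and 11.9 CPM. Dendritic cell genes (9 of 9) summed to 53.8 to 71.9 CPM in cortex, 39.4 to 62.0 in hippocampus, 26.0 to 62.7 in striatum and 48.5 to 76.9 in cerebellum, mostly from Zbtb46, Batf3 and Itgae. Of the same list, Flt3 averaged 0.886, 0.883, 0.776 and 0.492 CPM in these regions, and Clec9a had at most 0.240 CPM in any library. B cell genes (5 of 7 in the table, mostly Cd79b) summed to 103 to 204 CPM in cortex, 114 to 149 in hippocampus, 92.5 to 243 in striatum and 102 to 175 in cerebellum, and Ms4a1 was at 0 in all 12 libraries. Cd79a, a chain of the B cell receptor complex, had at most 1.97 CPM in the cortex and hippocampus libraries, against 33.3 CPM in striatum 1, 9.84 CPM in cerebellum 2 and 4.29 CPM in cerebellum 1, and it was at 0 in the other striatum and cerebellum libraries. Striatum 1 was the striatum library with the highest Cd74. The single library with the highest sum was from striatum for the border macrophage and B cell lists and from cerebellum for the dendritic cell list. Stab1 reached 1452 CPM in striatum 2, against 500 and 684 CPM in the other striatum libraries. In cortex, hippocampus, striatum and cerebellum, Stab1 averaged 558, 532, 879 and 627 CPM and Mrc1 509, 506, 485 and 400 CPM. The part of these cells in the Cd74 difference was not tested. Over the 12 libraries, monocyte and neutrophil genes summed to 0.162 to 18.7 CPM, and T and NK cell genes to at most 2.10 CPM, with 4 of the 6 in the table at 0 in all libraries. Choroid plexus genes summed to 0.0760 to 115 CPM in cortex, 0.211 to 55.6 in hippocampus, 43.8 to 840 in striatum and 0.579 to 295 in cerebellum, so the highest sums were in striatum and cerebellum libraries. Sums were 5.33 to 36.1 CPM for neuron, 36.3 to 113 for astrocyte, 99.9 to 200.3 for oligodendrocyte and 14.8 to 42.6 for endothelial genes.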

How the data were processed

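RNA of sorted microglia was turned into cDNA with a kit that does not mark strand (Smart-Seq v4) and made into Nextera XT libraries sequenced on a NextSeq, per the labels' protocols. The authors deposited whole-number read counts per gene symbol without normalization. Per the submitters' processing notes they used STAR 2.5.3a and Trim Galore 0.4.3, with HTSeq, Picard and build mm10. What each tool did, which annotation was counted and with which strand setting is not given in the sources used here. Every column of the table was used.

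Counts were fitted in R 4.3.3 with edgeR 4.0.16 (filterByExpr by region with minimum count 10 and minimum total count 15, TMM, a mean per region over all 12 libraries, robust quasi-likelihood test, Benjamini-Hochberg adjustment over 12217 genes, threshold 0.05). The contrast is the mean of cortex and hippocampus minus the mean of striatum and cerebellum. Intervals of log2 differences are 95% intervals from that fit's standard errors. Log2 CPM used a prior count of 2. DESeq2 1.42.0 and limma 3.58.1 (voom) were alternatives, as were DESeq2 size factors, no filter, a replicate block and each library left out. Replicate numbers were not taken as pairs, and the check is given with the alternatives. The edgeR quasi-likelihood fit was also run on simulated counts. That outcome is not given here, so the size of difference the fit could detect is left unstated. Between libraries of a region, chi-square per degree of freedom was 32.5 to 93.3 in the 12 pairs, so no library looked like a second deposit of another, which does not show that the pools were separate animals.

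The genes and lists were chosen with earlier results of these data known. Named were the 7 genes, up to 3 genes per pathway list with the smallest p, the 8 genes most like Cd74 and the 4 least like it (without ribosomal protein genes, RIKEN clones and predicted genes), and defining markers; other names were chosen after their values were seen, and a marker gene is not reported here. The symbols 1-Mar and 8-Mar were read as March1 and March8. Coordinates and exon lengths are from GENCODE M21 (GRCm38) and promoters from RefSeq (GRCm38.p6). Permutations were run with scipy 1.17.1 in Python 3.11.15.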

Additional observations from a re-analysis of the deposited data

How the results depend on the processing

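Across 17 alternatives the log2 difference of Cd74, cortex and hippocampus over striatum and cerebellum, ran from 1.25 (without striatum 2) to 1.57 (without striatum 1). That of H2-Ab1 ran from 0.28 to 0.54 and that of H2-DMa from 0.10 to 0.42. That of H2-DMb1 ran from −0.09 to 0.16 and was negative without cortex 1, hippocampus 2, striatum 2 or cerebellum 3. Under DESeq2, 13 genes passed between the sides and 5 over the 4 regions (Cd74 among both, which is no test of it, since it was chosen on that difference), against 0 for the quasi-likelihood test; the cause was not tested. Every other alternative called 0 genes in both tests, and pathway genes called were 0 under all 17. Leaving out 1 library, the correlation with Cd74 ran from −0.06 to 0.28 for H2-Ab1, from 0.33 to 0.57 for H2-DMa and from −0.46 (without striatum 2) to 0.23 for H2-DMb1. Within regions the correlation with H2-Ab1 was −0.60; the cause was not tested. With the replicate block, the log2 difference of Cd74 was 1.44, 0 genes passed in both tests and r was 0.04 for H2-Ab1, 0.53 for H2-DMa and 0.05 for H2-DMb1. The numbers were not read as pairs. The 18 same-numbered pairs of libraries from different regions had correlations of −0.12 to 0.29 (median 0.03), with 4 over 0.1. The 36 different-numbered pairs had −0.23 to 0.20 (median −0.01), with 2 over 0.1, and 7 of 12 libraries correlated best with their own number. Same-numbered pairs thus leaned towards higher correlations, and whether the numbers mark pairs is not settled. The alternatives for H2-Aa, H2-Eb1 and Ciita were not run, the fit without the filter included: they have no value in the filtered fit to set it against, and 0 reads in 4 to 11 of the 12 libraries. Depth limits those 3 genes most, with at most 21 reads in any library.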
